A study of Mus musculus with 18 samples.

Results

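Accessible regions around Pou5f1 and Nanog were followed through 18 ATAC-seq peak lists of mouse embryonic stem (ES) cells. The Pou5f1 window ran from 35620000 to 35660000 on chromosome 17 and the Nanog window from 122590000 to 122680000 on chromosome 6, both on the mm9 build. All peaks overlapping a window were taken, whatever their score, and peaks of all lists that shared 1 bp or more were merged into regions. This gave 63 of the 377189 merged regions of the series, 20 in the Pou5f1 window and 43 in the Nanog window. They hold 380 of the 1651188 deposited peaks, 151 at Pou5f1 and 229 at Nanog.

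Pou5f1 encodes OCT4, a POU-domain transcription factor, and Nanog encodes a homeodomain transcription factor. Together with SOX2 they hold mouse ES cells in the pluripotent state and bind each other's regulatory DNA. Pou5f1 is known for a distal enhancer that is active in ES cells and a proximal enhancer that is used more in epiblast-like cells, both upstream of the gene. Nanog is known for upstream enhancers that carry the same factors. In ATAC-seq a transposase inserts adapters into open DNA, so that open promoters and enhancers appear as peaks.

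The wild-type groups received 1 µM ICRF-193, a catalytic inhibitor of topoisomerase II, or its solvent DMSO, for 24 h (2 libraries each) or 1 h (3 libraries each). The 1 h groups rest on the sample titles and the design text, because the treatment protocol gives 24 h for wild-type cells. The Brg1fl/fl and Baf53afl/- lines carry Actin-CreER in all their libraries, and received 0.8 µM tamoxifen or ethanol for 24 h followed by 48 h in fresh medium (2 libraries each). Brg1 is the ATPase of the BAF chromatin remodelling complex and Baf53a an actin-related subunit of it. The ethanol control of the Baf53a line already lacks one allele, and CreER is driven by an actin promoter rather than one of a given cell type. All cells were grown in serum and LIF and sorted as viable before transposition. None of the 18 libraries is of tamoxifen-treated cells without a floxed gene, so that effects of tamoxifen and CreER cannot be told apart from deletion. Replicates are passages of one line, and p-values cover no more than the spread among them.

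The lists held 46431 to 129880 peaks, and their read depth is unknown. The deposited score of a peak has no stated unit and was used only to rank peaks within a list. A percentile of 90.9, for instance, means that 90.9% of the peaks of that list ranked below. Ranks from lists of different lengths show no change by themselves, so percentiles are given as a description without a test. Regions are named by the distance of their midpoint from the approximate gene start, 35643000 for Pou5f1 and 122657000 for Nanog, which was given to 1 kb only. Whether a region lies in an exon, an intron or a UTR was not analysed here, since no mm9 annotation was used. Loss of the Brg1 and Baf53a genes was not checked for the same reason. In the gene order of the GRCm38.p6 build, Pou5f1 lies between H2-Q10 and Tcf19, and Nanog between Dppa3, another gene expressed in pluripotent and germ cells, and Slc2a3, a glucose transporter gene. Deposited names set replicate 1 apart from the other replicates in every group by a name and a year, which is treated here as a possible batch.

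The promoters are printed because both windows hold regions near a gene start. The printed sequences are on another build than the peaks, and whether any region covers them was not analysed. Both come from RefSeq on GRCm38.p6, + strand, and cover the 250 bases before the first listed start. The table lists 2 starts for each gene. The window printed for Pou5f1 is chr17:35505782-35506031 and that for Nanog chr6:122707239-122707488. Capitals mark matches to 4 letter strings, read on both strands with no overlap between matches.
Pou5f1 promoter: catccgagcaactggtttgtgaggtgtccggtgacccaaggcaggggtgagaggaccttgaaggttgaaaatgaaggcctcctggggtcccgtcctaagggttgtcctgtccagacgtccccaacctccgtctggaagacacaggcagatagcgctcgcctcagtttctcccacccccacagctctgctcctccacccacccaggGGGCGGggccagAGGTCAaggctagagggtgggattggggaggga
Nanog promoter: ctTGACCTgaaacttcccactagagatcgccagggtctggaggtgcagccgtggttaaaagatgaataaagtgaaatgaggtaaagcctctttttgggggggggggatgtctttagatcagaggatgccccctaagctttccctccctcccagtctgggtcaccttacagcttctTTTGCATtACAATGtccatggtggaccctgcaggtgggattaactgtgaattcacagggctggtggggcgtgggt
In the Pou5f1 promoter the capitals are a GC box, GGGCGG, from 45 to 40 bases before the start, and a nuclear receptor core motif, AGGTCA, from 33 to 28 bases before it. The Pou5f1 promoter is known for a GC box that SP1 binds and a hormone response element beside it. In the Nanog promoter AGGTCA stands on the - strand from 248 to 243 bases before the start. The octamer core ATGCAAA stands on the - strand from 75 to 69 bases before the Nanog start, next to the Sox core ACAATG from 67 to 62. This pair is known as an element that OCT4 and SOX2 bind together. Of 32851 promoter windows of the same length, 32.7% held GGGCGG, 14.0% AGGTCA, 10.7% ACAATG and 4.12% ATGCAAA. The octamer of 8 letters, ATGCAAAT, was in 1.60% of windows and in neither sequence printed here. The form of 7 letters was added after the sequence had been seen. These matches are letters in a window and say nothing about binding in these cells.

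At Pou5f1, 2 of the 20 regions (10%) held a peak in all 18 libraries, and at Nanog 3 of the 43 (6.98%), against 18061 of all 377189 regions (4.79%). A further 3 regions at each gene (15% at Pou5f1, 6.98% at Nanog) held a peak in 16 or 17 libraries, against 3.28% of all regions. Regions with a peak in a single library numbered 5 at Pou5f1 (25%) and 19 at Nanog (44.2%), against 54.9% of all regions. The single-library regions were also the weak ones. Their percentile did not exceed 25.1 at Pou5f1 and 41.7 at Nanog, and regions found in all libraries had medians of 83.2 to 93.5 at Pou5f1 and 76.7 to 97.1 at Nanog.

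**Figure D1:**
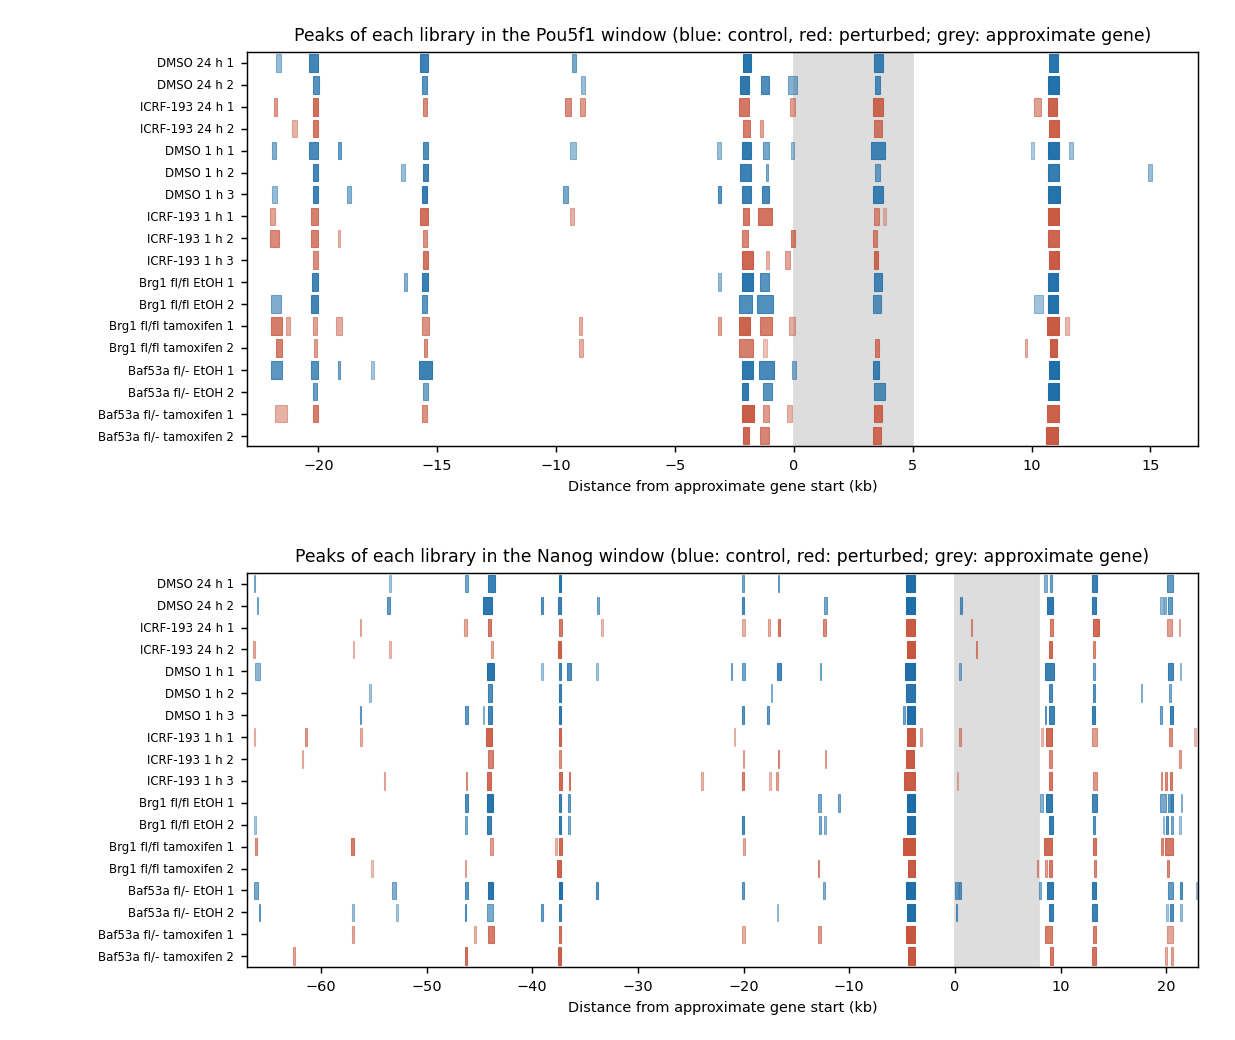
Every peak of the 18 lists drawn to scale along each window, with distance from the approximate gene start in kb on the x axis and 1 row per library. Blue boxes are control and red boxes perturbed libraries, deeper colour means a higher percentile within the list, and the grey band is the approximate gene. The columns at -2.0 and +10.9 kb of Pou5f1 and at -37.5, -4.3 and +8.9 kb of Nanog run through all 18 rows.

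The strongest region of the Nanog window lay upstream of the gene, at Nanog -4.3 kb (chromosome 6, 122652088 to 122653252). It was the highest-scoring region of that window in 18 of 18 libraries. Its percentile was 97.0 and 98.1 in DMSO and 95.9 and 98.7 in ICRF-193 at 24 h, and 96.9, 89.2 and 97.7 in DMSO and 97.1, 95.1 and 93.9 in ICRF-193 at 1 h. In the Brg1 line it was 99.2 and 95.6 in ethanol and 98.6 and 95.5 in tamoxifen, and in the Baf53a line 97.2 and 96.5 in ethanol and 98.7 and 98.1 in tamoxifen. Control and perturbed libraries overlapped in all contrasts but Baf53a, where both tamoxifen libraries ranked above both ethanol libraries. Group means ran only from 94.6 ± 4.67 (SD, n = 3) in DMSO at 1 h to 98.4 ± 0.426 (SD, n = 2) after Baf53a deletion. Peaks of all 18 lists shared 569 bp of this region, from 122652585 to 122653153, the longest stretch common to all lists among the 5 constant regions.

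The strongest Pou5f1 region lay beyond the far end of the gene, at Pou5f1 +10.9 kb (chromosome 17, 35653627 to 35654182). It ranked first in the window in 17 libraries, and Pou5f1 -2.0 kb ranked first in the remaining library, replicate 1 of Baf53a tamoxifen. The percentile of Pou5f1 +10.9 kb had its lowest value of 82.4 in replicate 2 of DMSO at 1 h, a median of 93.5 and its highest value of 96.9 in replicate 2 of Baf53a ethanol. At 24 h it was 91.0 and 94.2 in DMSO and 87.2 and 88.6 in ICRF-193, with no overlap. The ethanol libraries of the Brg1 line (93.6 and 93.9) lay between the tamoxifen libraries (96.1 and 91.8). In the Baf53a line both tamoxifen libraries (89.3 and 95.8) lay below both ethanol libraries (96.8 and 96.9). The bases common to all lists ran over 296 bp, from 35653786 to 35654081. Tcf19 follows Pou5f1 in gene order, and whether this region lies at the start of that gene was not analysed here.

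Upstream of Pou5f1, the region at Pou5f1 -2.0 kb (35640701 to 35641311) also held a peak in every library. Its percentile was 90.9 and 86.5 in DMSO and 68.2 and 62.7 in ICRF-193 at 24 h, and the groups did not overlap. The replicate 1 lists of that contrast were almost equally long, with 98166 and 98440 peaks, and there the region ranked 8913 from the top in DMSO and 31270 in ICRF-193. In bp under peaks the 24 h groups overlapped, at 359 and 378 in DMSO and 403 and 309 in ICRF-193. At 1 h the percentile was 83.4, 76.7 and 77.6 in DMSO and 68.3, 54.4 and 83.1 in ICRF-193, so that the groups overlapped. The Brg1 ethanol (88.7 and 64.6) and tamoxifen (87.6 and 62.1) libraries overlapped, as did the Baf53a ethanol (85.6 and 85.0) and tamoxifen (91.3 and 83.3) libraries. In the Brg1 line the spread between replicates was far wider than the difference between treatments. All lists shared 200 bp, from 35640883 to 35641082.

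Closer to the gene, peaks became less regular. Pou5f1 -1.2 kb (35641470 to 35642152) had a peak in 15 libraries, 8 control and 7 perturbed, with a percentile from 0.456 to 72.6 and a median of 58.2. The 3 libraries without one were replicate 1 of DMSO and of ICRF-193 at 24 h and replicate 2 of ICRF-193 at 1 h. Pou5f1 -0.1 kb (35642647 to 35643119), which spans the approximate start, had a peak in 8 libraries, 3 control and 5 perturbed, at a median percentile of 26.5. Within the approximate gene, Pou5f1 +3.6 kb (35646230 to 35646893) was found in 17 libraries, at percentiles of 40.2 to 81.7, and was absent from replicate 1 of Brg1 tamoxifen. At the start of Nanog peaks were found in fewer libraries. Nanog +0.2 kb (122657024 to 122657291) had a peak in 3 libraries at a median percentile of 43.0, and Nanog +0.5 kb (122657385 to 122657629) in 4 at a median of 39.5. The margin of 1 kb that defines regions near a start was set after the data had been seen.

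Other regions held a peak in every library of 1 or 2 groups and in 3 to 11 libraries in all. Pou5f1 -21.6 kb (35620973 to 35621792) was found in 11 libraries, among them both of Brg1 tamoxifen, at a median percentile of 31.8. Nanog -20.0 kb (122636828 to 122637105) was found in 11, among them both of DMSO at 24 h, at a median of 37.9, and Nanog -46.3 kb (122610518 to 122610924) in 10, among them both ethanol libraries of either deletion line, at a median of 44.4. Nanog -12.8 kb (122644031 to 122644360) was found in 5, among them both of Brg1 ethanol, at a median of 35.1, and Nanog -53.6 kb (122603219 to 122603629) in 3, among them both of DMSO at 24 h, at a median of 4.87.

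**Figure D2:**
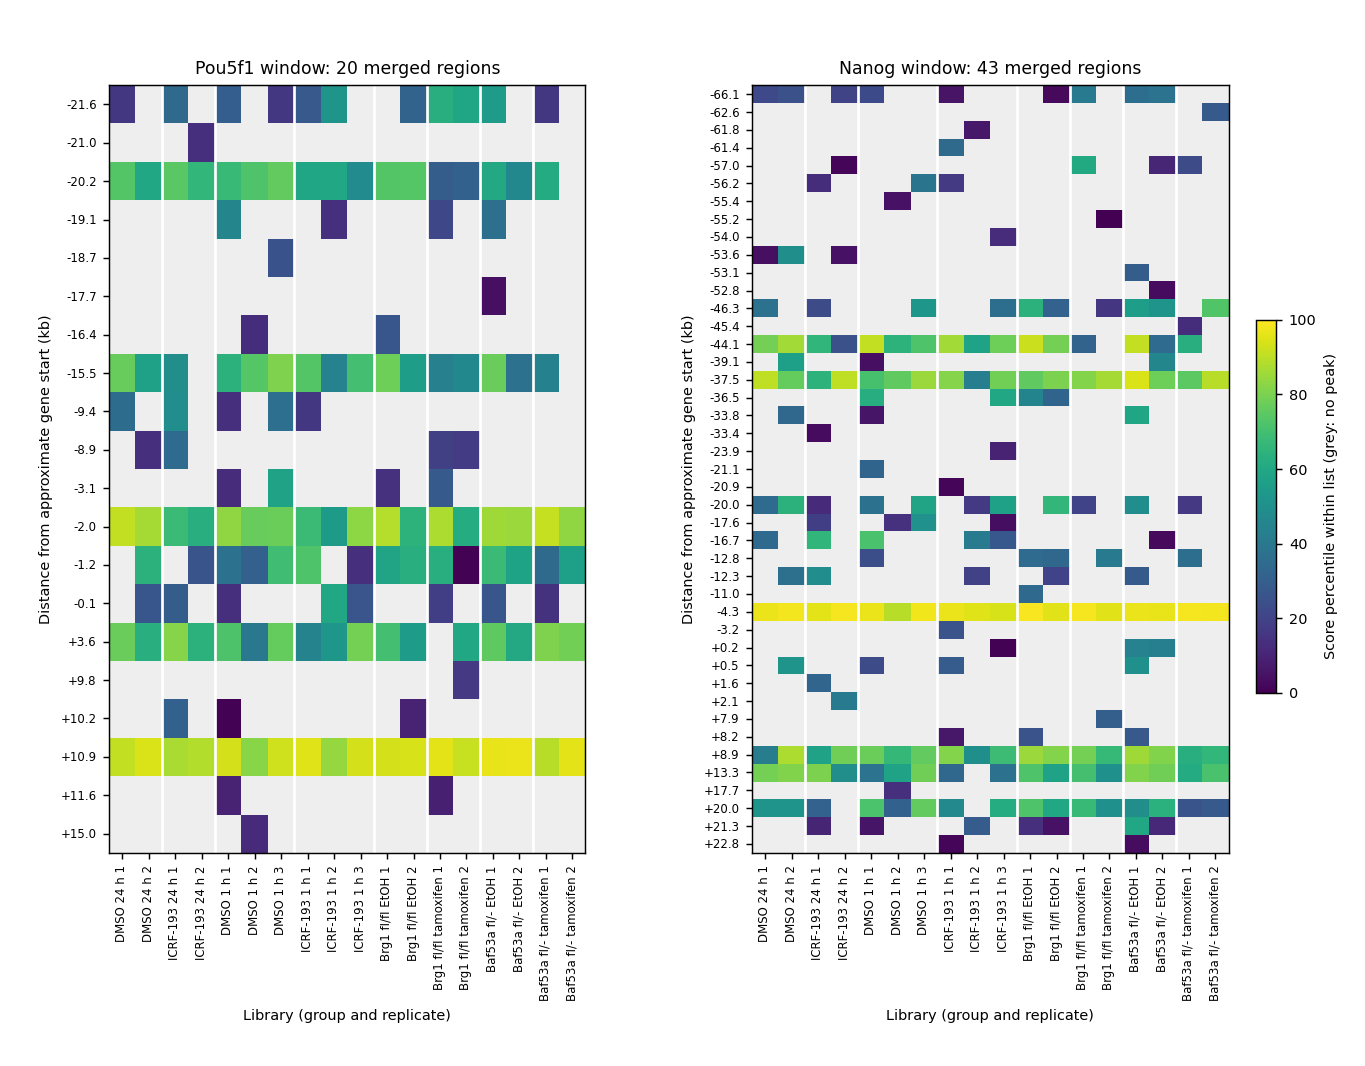
Score percentile within its own list of each of the 20 Pou5f1 and 43 Nanog regions (rows, by distance in kb from the approximate gene start) in each of the 18 libraries (columns), with grey where a library has no peak. The rows at Pou5f1 +10.9 kb and Nanog -4.3 kb are bright throughout, and the rows at Pou5f1 -0.1 kb and Nanog +0.2 and +0.5 kb are mostly grey.

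At some distance from Nanog, 2 regions held a peak in every library with a wider spread of ranks. Nanog -37.5 kb (122619180 to 122619801) had percentiles from 42.9 to 94.5 with a median of 79.6. Nanog +8.9 kb (122665466 to 122666401), just past the approximate end of the gene, had percentiles from 42.5 to 87.5 with a median of 76.7. In the Baf53a line both tamoxifen libraries of Nanog +8.9 kb (63.3 and 66.1) ranked below both ethanol libraries (85.7 and 81.0), and in the Brg1 line likewise (79.0 and 67.0 against 85.0 and 81.4). At 24 h the DMSO libraries of this region (42.5 and 87.5) lay on either side of the ICRF-193 libraries (57.5 and 78.5). Among the 46431 highest-scoring peaks of every list (the size of the shortest one), Nanog +8.9 kb was found in 17 libraries. The 4 other constant regions were still found in all 18.

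The far upstream region Nanog -44.1 kb (122612295 to 122613452) was broad and strong in most controls and was missing from 2 perturbed libraries. In the Brg1 line its percentile was 91.9 and 79.2 in ethanol and 32.0 in replicate 1 of tamoxifen, with no peak in replicate 2. In bp under peaks these were 576 and 367 in ethanol and 234 and 0 in tamoxifen, so that the tamoxifen libraries lay below both ethanol libraries on either measure. At 24 h the region went from percentiles of 79.1 and 86.1 in DMSO to 65.7 and 24.6 in ICRF-193. Those groups did not overlap either, also in bp under peaks (683 and 841 against 225 and 177). In the Baf53a line the values were 90.9 and 35.1 in ethanol and 63.2 and none in tamoxifen, and at 1 h 90.7, 64.7 and 72.6 in DMSO and 86.0, 57.7 and 78.0 in ICRF-193, where the groups overlapped. The Brg1 tamoxifen replicate 2 list is the shortest of all and held 36.7% of the absences of regions of this class over the genome, and the part of list length in this absence was not tested.

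The other regions found in 16 or 17 libraries were Pou5f1 -20.2 kb, -15.5 kb and +3.6 kb and Nanog +13.3 kb and +20.0 kb. Pou5f1 -20.2 kb (35622621 to 35623014) and Pou5f1 -15.5 kb (35627227 to 35627761) had median percentiles of 61.5 and 60.6. Pou5f1 -20.2 kb stood at 73.3 and 73.7 in Brg1 ethanol and at 29.5 and 31.0 in tamoxifen. Pou5f1 -15.5 kb stood at 77.9 and 55.7 in Brg1 ethanol and at 43.6 and 46.7 in Brg1 tamoxifen, again without overlap. At 24 h Pou5f1 -15.5 kb stood at 76.9 and 57.0 in DMSO and at 49.5 and none in ICRF-193. The groups of Pou5f1 -15.5 kb overlapped at 1 h. Those of Pou5f1 -20.2 kb did not, at 67.5, 72.4 and 75.9 in DMSO and 58.9, 59.96 and 48.4 in ICRF-193. The groups of Pou5f1 -20.2 kb overlapped at 24 h and in the Baf53a line. Nanog +13.3 kb (122669928 to 122670590) had a median of 70.7, and Nanog +20.0 kb (122676375 to 122677678), a loose cluster of 28 peaks, one of 51.7. In the Baf53a line Nanog +13.3 kb stood at 81.1 and 78.4 in ethanol and at 61.4 and 71.3 in tamoxifen. Nanog +20.0 kb stood at 49.2 and 64.0 in Baf53a ethanol and at 26.1 and 27.8 in tamoxifen. Pou5f1 +3.6 kb went the other way there, at 75.0 and 60.2 in ethanol and 80.5 and 78.9 in tamoxifen. In the Brg1 line the groups of these 3 regions overlapped. With ICRF-193 for 1 h Nanog +13.3 kb stood at 33.7, none and 37.7, below 38.0, 57.6 and 78.4 in DMSO. At 24 h Nanog +20.0 kb stood at 31.5 and none in ICRF-193, below 51.7 and 51.6 in DMSO. The groups of Nanog +13.3 kb overlapped at 24 h and those of Nanog +20.0 kb at 1 h. Those of Pou5f1 +3.6 kb overlapped at both times. The 6 regions of this class had 9 absences, 0 in control and 9 in perturbed libraries. Over all 12356 regions of this class, 14462 of 17814 absences (81.2%) were in perturbed libraries. The 9 absences fell in 5 of the 9 perturbed libraries. Replicate 2 of Baf53a tamoxifen had 3 (Pou5f1 -20.2 kb and -15.5 kb and Nanog -44.1 kb), replicate 2 of ICRF-193 at 24 h had 2 (Pou5f1 -15.5 kb and Nanog +20.0 kb) and replicate 2 of ICRF-193 at 1 h had 2 (Nanog +13.3 kb and +20.0 kb). Brg1 tamoxifen had 1 in replicate 1 (Pou5f1 +3.6 kb) and 1 in replicate 2 (Nanog -44.1 kb). This count of absences was chosen after the data had been seen and was not tested.

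Most control-shared regions of both genes still held a peak in 1 or more perturbed libraries of each contrast. A region was counted as lost when all control libraries of a contrast held a peak there and its perturbed libraries held none, and as gained the other way round. At 24 h of ICRF-193, 0 of 14 control-shared regions were lost, against 15.5% of all such regions. At 1 h, 0 of 12 were lost, against 2.28%. After Brg1 deletion 2 of 16 were lost (23.9% of all) and after Baf53a deletion 3 of 16 (11.2% of all). Under this rule all of the lost regions lay at Nanog and none at Pou5f1, which was not so after Brg1 deletion with the top-scoring 50% of peaks or with 50% coverage of a region. Gained regions numbered 1 of 12 perturbed-shared regions after Brg1 deletion, Pou5f1 -8.9 kb, against 4.97% of all. They numbered 0 of 9 in each of the other contrasts, against 5.46% at 24 h, 0.375% at 1 h and 5.49% after Baf53a deletion. These small counts were not tested against those shares.

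Regions kept in every perturbed library were a larger share of the control-shared regions at Pou5f1 than at Nanog in each contrast. At 24 h they were 4 of 5 at Pou5f1 and 5 of 9 at Nanog (62.3% of all control-shared regions), and at 1 h 5 of 6 and 4 of 6 (69% of all). After Brg1 deletion they were 5 of 6 and 5 of 10 (47.8% of all), and after Baf53a deletion 4 of 6 and 5 of 10 (68.4% of all). The difference between the genes was not tested.

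The lost regions were weak. After Brg1 deletion, Nanog -36.5 kb (122620329 to 122620648) had a mean percentile of 38.6 ± 9.22 (SD, n = 2) in the ethanol libraries and Nanog +21.3 kb (122678173 to 122678500) one of 9.05 ± 6.00 (SD, n = 2). Both lay in the weakest of 5 equal score classes, in which 48.4% of control-shared regions of the series were lost. After Baf53a deletion, Nanog +21.3 kb (35.5 ± 34.2, SD, n = 2) was lost as well, with Nanog -66.1 kb (122590613 to 122591250; 37.1 ± 1.54, SD, n = 2) and Nanog +0.2 kb at the gene start (43.6 ± 0.845, SD, n = 2). The first pair fell in the weakest class (33.4% lost) and Nanog +0.2 kb in the next (15.2% lost). The gained region Pou5f1 -8.9 kb (35633948 to 35634237) had a percentile of 18.2 ± 0.801 (SD, n = 2) in Brg1 tamoxifen, and also held a peak in 2 libraries of wild-type cells at 24 h.

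Which regions counted as lost depended on how the lists were shortened, but not in every case. With equal numbers of peaks the same 3 regions were lost after Baf53a deletion (3 of 16, against 9.52% of all). With the 46431 top-scoring peaks of each Brg1 list, the lost region was Nanog -44.1 kb (1 of 12, against 18.9% of all) and the gained one Pou5f1 -21.6 kb (1 of 9, against 9.52% of all). With the top-scoring 50% of each list, Pou5f1 -20.2 kb, Pou5f1 -15.5 kb and Nanog -44.1 kb were lost after Brg1 deletion (3 of 12, against 23.6% of all) and 0 of 9 regions after Baf53a deletion (9.80% of all). Where detection needed peaks over 50% or more of a region, Pou5f1 -20.2 kb, Pou5f1 +3.6 kb and Nanog -12.8 kb were lost after Brg1 deletion (3 of 7, against 37.5% of all). Leaving out 1 library makes a rule easier to meet for all regions, so each count is given with its share over all regions. The lost regions of the Brg1 line then numbered 4 of 21 (37.6% of all) and 5 of 20 (48.5%) without ethanol replicate 1 and 2, and 3 of 16 (49.8%) and 5 of 16 (26.2%) without tamoxifen replicate 1 and 2. Those of the Baf53a line numbered 6 of 20 (28.1%) and 11 of 27 (35.0%) without ethanol replicate 1 and 2, and 6 of 16 (24.6%) and 4 of 16 (18.1%) without tamoxifen replicate 1 and 2. At 24 h they numbered 3 of 21 (42.8%) without DMSO replicate 1, and 3 of 14 (31.5%) and 2 of 14 (21.7%) without ICRF-193 replicate 1 and 2. At 1 h they numbered 1 of 16 (11.1%) without DMSO replicate 2. The share of members was above that of all regions without any one Baf53a library and without Brg1 tamoxifen replicate 2, and below it in the other cases named, and these differences were not tested.

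Gained regions at 24 h numbered 3 of 15 (22.4% of all) and 6 of 25 (27.7%) without ICRF-193 replicate 1 and 2. In the Brg1 line they numbered 2 of 12 (8.95%) without ethanol replicate 2, and 4 of 18 (22.3%) and 5 of 20 (30.8%) without tamoxifen replicate 1 and 2. In the Baf53a line they numbered 1 of 11 (31.0%) and 2 of 18 (24.5%) without tamoxifen replicate 1 and 2.

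Few regions elsewhere had the same presence and absence over all 18 libraries as these lost or gained ones. Nanog +0.2 kb shared its pattern with 25 regions, the highest-scoring on chromosome 8 from 111603266 to 111603504 (mean percentile 58.7). Nanog -36.5 kb shared its pattern with 9 regions, led by one on chromosome 13 from 20648596 to 20648924 (42.8), and Pou5f1 -8.9 kb with 3, led by one on chromosome 7 from 50810714 to 50811092 (34.6). Nanog +21.3 kb shared its pattern with 1 region, on chromosome 5 from 120772427 to 120772847, and Nanog -66.1 kb with 0.

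Libraries of both deletions held fewer Nanog regions than their controls, without passing a test. Ethanol libraries of the Brg1 line had 12 and 13 regions with a peak in the Nanog window and tamoxifen libraries 9 and 9 (means 12.5 ± 0.707 and 9 ± 0, SD, n = 2, exact permutation p = 0.3333). Ethanol libraries of the Baf53a line had 17 and 14 and tamoxifen libraries 10 and 7 (15.5 ± 2.12 and 8.5 ± 2.12, SD, n = 2, exact permutation p = 0.3333). The groups did not overlap in either line, and 0.3333 is the smallest two-sided p that 2 against 2 libraries allow. With ICRF-193 the groups overlapped, at 11 and 13 against 15 and 9 regions for 24 h and at 16, 9 and 10 against 14, 9 and 14 for 1 h. Pou5f1 regions overlapped in 3 contrasts. They numbered 8 and 8 in Brg1 ethanol and 11 and 9 in tamoxifen (exact permutation p = 0.3333).

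Over the 4 contrasts together, labels were permuted within contrasts in all 4320 ways, which allow a two-sided p of 0.000463 at the smallest. The number of Nanog regions changed by -2.46 on average (exact permutation p = 0.106, adjusted p = 0.424 over 4 library tests) and that of Pou5f1 regions by -0.542 (exact permutation p = 0.624, adjusted p = 0.831). Neither passed. Within the possible batches the Nanog change was -2 in replicate 1 and -3.25 in the other replicates, and the Pou5f1 change -0.25 and -1.13. With the top-scoring 50% of each list both passed, at -2.29 for Nanog and -1.33 for Pou5f1 (each exact permutation test with adjusted p = 0.0389). With equal numbers of peaks in each contrast neither did, at -1.71 (exact permutation test, adjusted p = 0.639) and 0.333 (adjusted p = 0.751), and the Pou5f1 direction turned. Over all alternatives the adjusted p ran from 0.0389 to 0.861 for Nanog and from 0.0389 to 1 for Pou5f1.

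**Figure D3:**
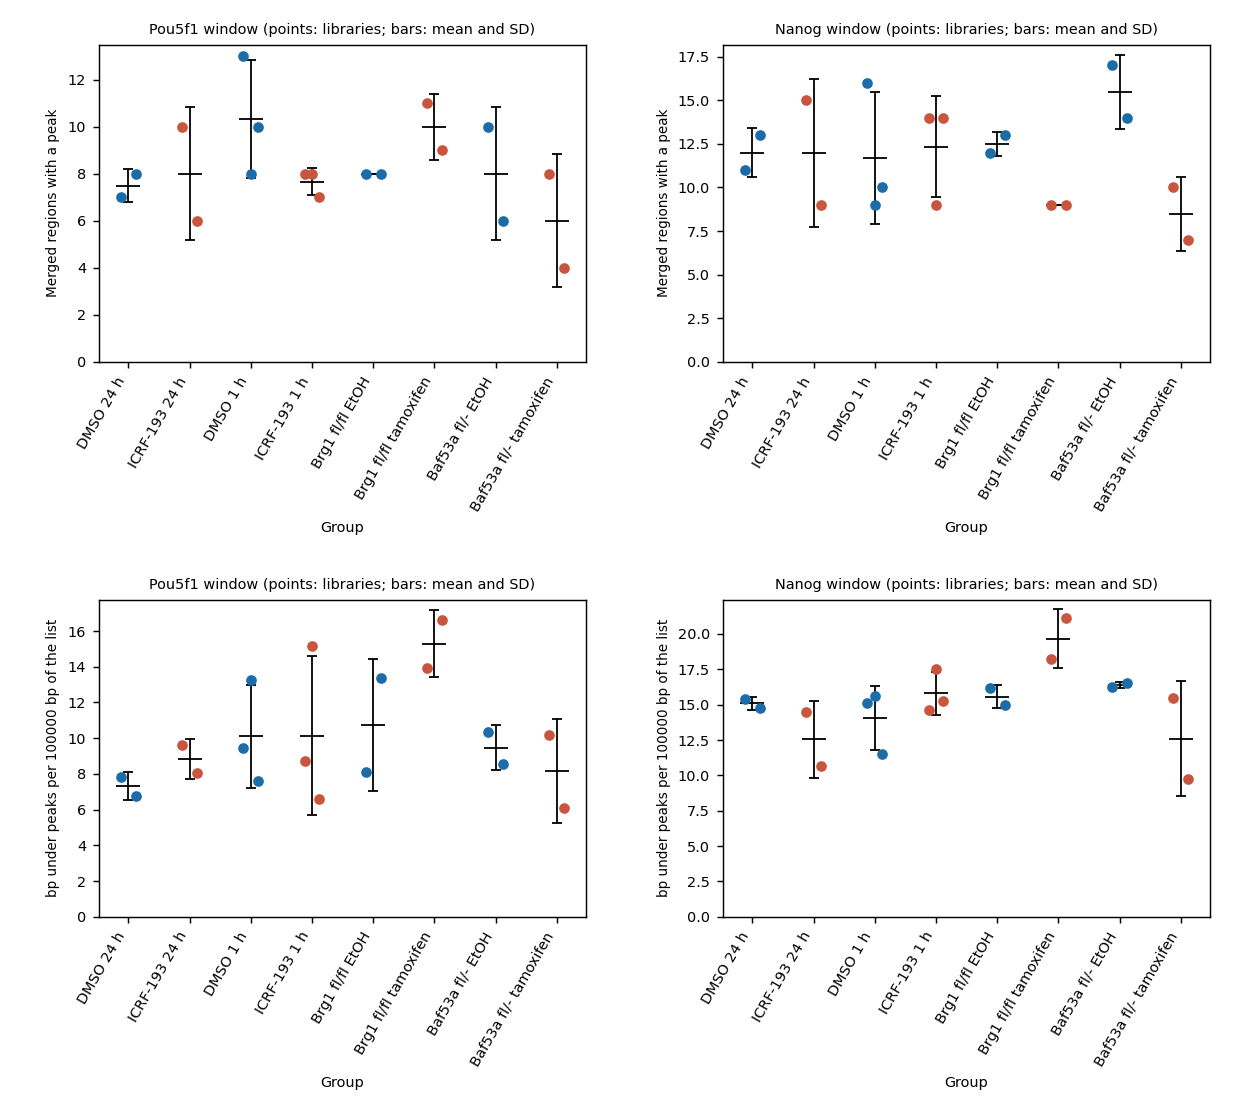
Number of merged regions with a peak (top) and bp under peaks per 100000 bp of the list (bottom) in the Pou5f1 window (left) and the Nanog window (right), for each group on the x axis. Points are libraries (blue control, red perturbed) and bars the mean and SD. Nanog regions of both tamoxifen groups, at 7 to 10, lie below those of their ethanol controls, at 12 to 17.

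The share of each list that lay in the windows lay on different sides of the controls in the 2 deletion lines. It is given as bp under peaks in the window per 100000 bp under all peaks of the list. At Nanog it was 16.2 and 14.98 in Brg1 ethanol and 18.2 and 21.2 in Brg1 tamoxifen, and 16.2 and 16.5 in Baf53a ethanol and 15.5 and 9.73 in Baf53a tamoxifen. At 24 h it was 15.4 and 14.8 in DMSO and 14.5 and 10.6 in ICRF-193, and at 1 h 15.1, 15.6 and 11.5 in DMSO and 14.6, 17.5 and 15.2 in ICRF-193. The contrasts of both deletions and of 24 h had groups that did not overlap (each exact permutation p = 0.3333), higher after Brg1 deletion and lower after Baf53a deletion and 24 h of ICRF-193. In bp alone, Nanog peaks covered 4777 and 3643 in Brg1 ethanol and 4485 and 2448 in tamoxifen, with overlap. All peaks of these lists covered 29543879 and 24314930 bp in ethanol and 24639125 and 11571187 bp in tamoxifen. In the Baf53a line Nanog peaks covered 5480 and 3799 bp in ethanol and 3939 and 2332 bp in tamoxifen, also with overlap. At 24 h they covered 4340 and 5254 bp in DMSO and 4066 and 2135 bp in ICRF-193, without overlap. At Pou5f1 the share was 8.12 and 13.4 in Brg1 ethanol and 13.9 and 16.6 in Brg1 tamoxifen, and 7.85 and 6.76 in DMSO and 9.63 and 8.03 in ICRF-193 at 24 h, without overlap (each exact permutation p = 0.3333). In bp alone both of these contrasts overlapped. Pou5f1 peaks covered 2400 and 3251 bp in Brg1 ethanol and 3437 and 1922 bp in tamoxifen. At 24 h they covered 2209 and 2402 bp in DMSO and 2706 and 1612 bp in ICRF-193. The Pou5f1 share overlapped at 1 h and in the Baf53a line. Over the 4 contrasts the mean change was 1.20 at Pou5f1 (exact permutation p = 0.373, adjusted p = 0.745) and -0.133 at Nanog (exact permutation p = 0.925, adjusted p = 0.925). Within the possible batches it was 1.67 in replicate 1 and 0.621 in the other replicates at Pou5f1, and -0.0490 and -0.491 at Nanog.

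Of these 4 measures, 2 went with the length of the list. The shares are divided by the bp of the whole list, 11571187 in the shortest list and 36047591 in the longest. Share and list length are therefore not independent, so a test against no relation says little about the loci themselves. Over the 18 libraries the Pou5f1 share fell with the number of peaks (Pearson r = -0.707, permutation p = 0.00152, adjusted p = 0.00608 over 4 relations; Spearman rho = -0.515, permutation p = 0.032, adjusted p = 0.064). Without the 2 lists farthest from the median length r was -0.467 (permutation p = 0.07042), so that the relation did not hold without them, and it was -0.496 in replicate 1 (n = 8) and -0.774 in the other replicates (n = 10), without a test. The number of Nanog regions rose with the number of peaks (r = 0.551, permutation p = 0.01802, adjusted p = 0.03604; rho = 0.609, permutation p = 0.011, adjusted p = 0.044). Its r was 0.460 without the 2 farthest lists (permutation p = 0.07242), so that it too rests in part on them, and it was 0.805 in replicate 1 (n = 8) and 0.416 in the other replicates (n = 10). The Nanog share (r = -0.418, permutation p = 0.08206, adjusted p = 0.109; rho = -0.430, permutation p = 0.0796, adjusted p = 0.106) and the number of Pou5f1 regions (r = 0.318, permutation p = 0.20168, adjusted p = 0.20168; rho = 0.349, permutation p = 0.153, adjusted p = 0.153) did not pass. Without the 2 farthest lists their r was -0.0597 and 0.464 (permutation p = 0.8192 and 0.07044), in replicate 1 -0.378 and 0.406, and in the other replicates -0.550 and 0.104. The perturbed lists were shorter on average. With equal numbers of peaks in each contrast, the mean change over the 4 contrasts was -1.71 for Nanog regions and 0.333 for Pou5f1 regions. It was 0.408 for the Pou5f1 share and -0.786 for the Nanog share. None passed (exact permutation tests, adjusted p = 0.639 for Nanog regions and 0.751 for each other measure). The part of list length in the differences of single contrasts was not tested.

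The width of the constant regions was compared in a fit over all 18061 regions that held a peak in every library. It used log2 bp under peaks, with each library centred on its median, and limma with Benjamini-Hochberg adjustment over all regions. None of the 5 member regions was called in any contrast, and 1 of their 20 values had an unadjusted limma p under 0.05. Over all regions, limma called 23 after Brg1 deletion (0.127%, all narrower), 1 at 24 h (0.00554%, narrower), and 0 at 1 h and after Baf53a deletion, where 842 and 834 had an unadjusted p under 0.05. After Brg1 deletion 1666 regions had an unadjusted limma p under 0.05, and at 24 h 1016. Tests of the difference between Brg1 and Baf53a deletion and between 24 h and 1 h called 0 regions each, with 1043 and 844 at an unadjusted p under 0.05. In data simulated for the Brg1 contrast, with 18061 regions, 56% of 4-fold and 4% of 2-fold changes were called, so that a 2-fold change of width was seldom detectable. With each contrast fitted alone limma called 0 regions after Brg1 deletion and 0 at 24 h. With a replicate block in the fit over all libraries it also called 0 in both. Without tamoxifen replicate 1 the Brg1 count was 315, and without any of the 3 other libraries of the contrast 0 to 2. At 24 h it was 14 without ICRF-193 replicate 1 and 3 without DMSO replicate 1, and in the Baf53a line 3 without tamoxifen replicate 1 and 2 without ethanol replicate 1.

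**Figure D4:**
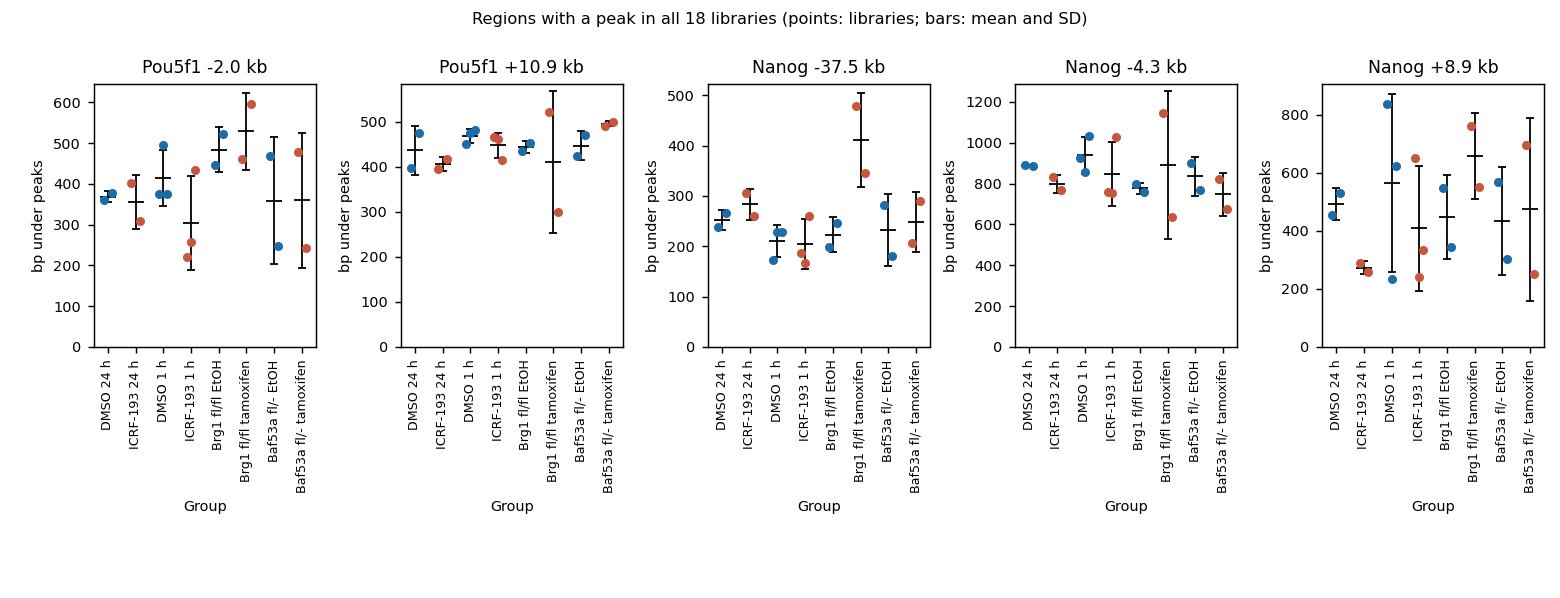
Base pairs under peaks (y axis, from 0) in each group (x axis) for the 5 regions with a peak in all 18 libraries. Points are libraries (blue control, red perturbed) and bars the mean and SD. At Nanog -37.5 kb the Brg1 tamoxifen libraries, at 345 and 478 bp, lie above every other library. The 478 bp are the sum of separate peaks.

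Nanog -37.5 kb had the largest fitted change of the 5. Its peaks covered 198 and 247 bp in Brg1 ethanol and 478 and 345 bp in Brg1 tamoxifen, and 167 to 305 bp in the other libraries. The 478 bp of tamoxifen replicate 1 came from 2 separate peaks. These lay at -37.821 to -37.635 kb (percentile 11.3) and at -37.516 to -37.224 kb (percentile 81.5). The weaker peak joined the region only through the peak of tamoxifen replicate 2, from -37.645 to -37.3 kb. The part of this joining in the fitted change was not tested. The log2 change was 1.17 (SE 0.33, 95% interval 0.46 to 1.87, limma adjusted p = 0.213). It was higher in 2 of 2 tamoxifen libraries and did not pass the correction, and the adjusted p ran from 0.162 to 0.682 with single libraries left out. After Baf53a deletion the change was 0.20 (SE 0.33, limma adjusted p = 1.00). The difference between the deletions was 0.96 (95% interval -0.033 to 1.96, limma adjusted p = 0.893) and did not pass either.

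Nanog +8.9 kb differed in direction of width between treatments without passing. Its peaks covered 455 and 532 bp in DMSO and 289 and 258 bp in ICRF-193 at 24 h, with no overlap (log2 change -0.69, SE 0.44, interval -1.62 to 0.23, limma adjusted p = 0.963). In the Brg1 line they covered 549 and 345 bp in ethanol and 762 and 553 bp in tamoxifen, also with no overlap (0.87, SE 0.44, interval -0.058 to 1.79, limma adjusted p = 0.583). The 455 bp of DMSO replicate 1 were the sum of 2 separate peaks, at 8.468 to 8.727 kb and 8.976 to 9.172 kb. So were the 553 bp of Brg1 tamoxifen replicate 2, at 8.508 to 8.706 kb and 8.878 to 9.233 kb. Both separations use these sums, and widths of single peaks were not compared. By percentile the Brg1 tamoxifen libraries of this region (79.0 and 67.0) ranked below both ethanol libraries (85.0 and 81.4), opposite to their bp. The 24 h groups overlapped by percentile. The strong region Nanog -4.3 kb covered 635 to 1147 bp over all libraries. Its log2 change was 0.0071 at 24 h (interval -0.55 to 0.56), -0.068 at 1 h (-0.52 to 0.39), 0.43 after Brg1 deletion (-0.13 to 0.98) and -0.071 after Baf53a deletion (-0.63 to 0.49). Both extreme widths of Nanog -4.3 kb were in Brg1 tamoxifen, 1147 bp in replicate 1 and 635 bp in replicate 2. Replicate 2 had the narrowest peaks at constant regions of all libraries, with a median of 360 bp against 556 bp in replicate 1.

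At Pou5f1 the fitted changes were small beside their intervals. Pou5f1 +10.9 kb covered 300 to 523 bp, and both ends of that range were again the Brg1 tamoxifen libraries. Its log2 change lay between 0.021 at 1 h (interval -0.50 to 0.54) and 0.24 after Baf53a deletion (-0.39 to 0.88). Pou5f1 -2.0 kb covered 221 to 596 bp, with a log2 change from -0.41 at 1 h (-1.17 to 0.35) to 0.41 after Brg1 deletion (-0.52 to 1.34). These intervals do not show that widths were alike. Centring removed a shift of the median of all regions of -0.16 at 24 h and -0.29 after Brg1 deletion on the log2 scale, and without it Pou5f1 +10.9 kb changed sign in 3 contrasts.

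**Figure D5:**
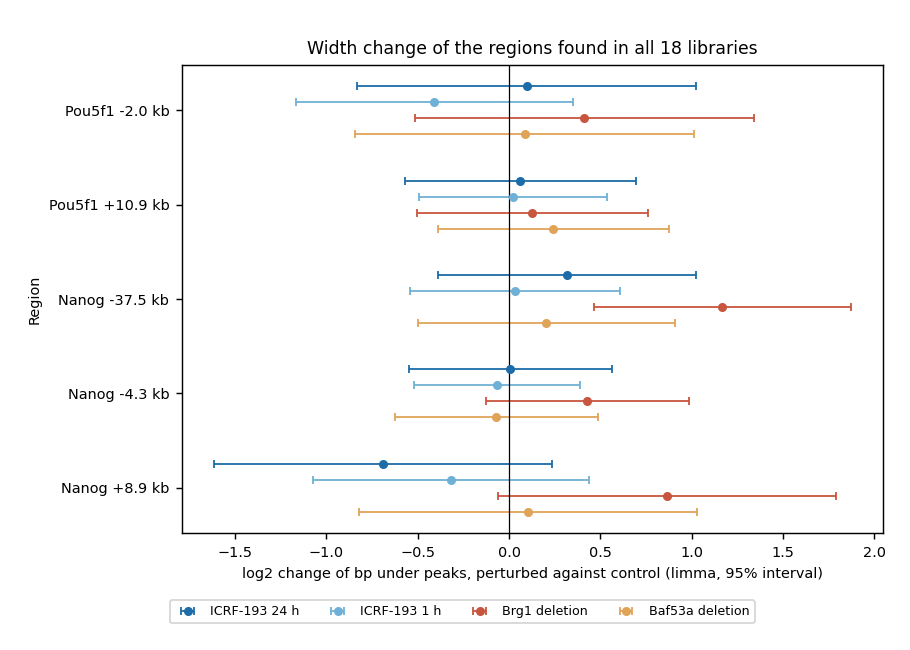
Fitted log2 change of bp under peaks, perturbed against control (x axis), for the 5 regions with a peak in all 18 libraries (y axis). Points are limma estimates, bars their 95% intervals and colours the 4 contrasts. Only the interval of Nanog -37.5 kb after Brg1 deletion, 0.46 to 1.87, leaves out 0, and its adjusted p of 0.213 does not pass.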

How the data were processed

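ATAC-seq peak lists of 18 libraries were read as deposited. The submitters' processing notes name the mm9 build, MACS2, Bowtie 0.12.9 and edgeR 3.12.1 without saying which step each served. The file headers and labels do not state peak-calling settings, read shifting or blacklists. The start and end positions of peaks (other values) are the authors' own, and the score is the authors' value per peak, with no unit stated in the deposited lists. No read counts were used, so read depth is unknown and no counting interval is given.

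All peaks of the 18 lists that shared 1 bp or more were joined into merged regions. Members were all regions in both windows. Regions named are those with a peak in every library of a group, the highest-scoring of each window, those near a gene start, and those lost or gained. The windows, lists and rules were chosen with earlier results of these data known. Library values were tested by exact permutation of labels (two-sided), with Benjamini-Hochberg adjustment over 4 tests. Widths were fitted with limma 3.58.1 in R 4.3.3 with 1 term per group over all 18 libraries, called at an adjusted p under 0.05, and the fit was tested on simulated data. Other steps used Python 3.11.15, numpy 2.4.6, pandas 2.3.3, scipy 1.17.1 and matplotlib 3.10.9. Alternatives were equal numbers of peaks per contrast, the top-scoring 50% of peaks, merging up to 200 bp apart, a coverage of 50% of a region, quantile normalization or no centring of widths, a replicate block, a fit of each contrast alone, and leaving out each library.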

Additional observations from a re-analysis of the deposited data

Results flagged for a closer look

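The share of peak bp in the Nanog window moved in opposite directions in different contrasts, with every perturbed library on one side of its controls. Per 100000 bp of the list, the mean share changed by 4.10 after Brg1 deletion, by -3.80 after Baf53a deletion and by -2.55 with ICRF-193 for 24 h. The change after Brg1 deletion was 7.91 above that after Baf53a deletion, and the change at 24 h was -6.65 relative to that after Brg1 deletion. These differences between contrasts were not tested. In bp under Nanog peaks, not divided by the list, tamoxifen and ethanol libraries overlapped in both deletion lines. At 24 h the ICRF-193 libraries (4066 and 2135 bp) lay below both DMSO libraries (4340 and 5254 bp) on this measure as well. The Brg1 tamoxifen lists held 84763 and 46431 peaks and the Baf53a tamoxifen lists 88729 and 86960, and the part of list length was not tested.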

How the results depend on the processing

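Of the 4 library tests, none passed as reported. With equal numbers of peaks the number of Pou5f1 regions changed by 0.333 (reversed). With the top-scoring 50% of peaks it changed by -1.33 and the number of Nanog regions by -2.29 (both now passing), and the Pou5f1 share by -0.0398 (reversed). With single libraries left out, Pou5f1 regions ran from -1.04 to -0.0417, the Pou5f1 share from 0.541 to 1.85, Nanog regions from -3.21 to -1.71 and the Nanog share from -0.849 to 0.584. Lost regions at 24 h numbered 1 of 12 with equal numbers (11.6% of all), 2 of 10 with the top-scoring 50% (15.3%) and 2 of 8 with 50% coverage (30.3%). After Brg1 deletion they numbered 1 of 12 with equal numbers (18.9%), 3 of 12 with the top-scoring 50% (23.6%) and 3 of 7 with 50% coverage (37.5%). After Baf53a deletion they numbered 3 of 16 with equal numbers (9.52%) and 4 of 16 with merging up to 200 bp (10.9%). In that line they numbered 0 of 9 with the top-scoring 50% (9.80%) and 1 of 5 with 50% coverage (22.6%). These counts were not tested against those shares. With single libraries left out they ran from 0 to 3 at 24 h, 0 to 1 at 1 h, 3 to 5 after Brg1 deletion and 4 to 11 after Baf53a deletion, and gained regions from 0 to 6, 0 to 0, 1 to 5 and 0 to 2. Width calls after Brg1 deletion numbered 12 with quantile normalization, 4 without centring, 10 with merging up to 200 bp and 0 in the contrast alone. At 24 h they numbered 0 without centring, with merging and in the contrast alone. With single libraries left out they ran from 0 to 315 after Brg1 deletion, 0 to 14 at 24 h, 0 to 3 after Baf53a deletion and 0 to 0 at 1 h.

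Of 100 width values of single members under other settings, 13 changed sign, none of them past the threshold. Without centring these were Pou5f1 -2.0 kb at 24 h (-0.062) and after Baf53a deletion (-0.0055), Pou5f1 +10.9 kb at 24 h (-0.096), at 1 h (-0.070) and after Brg1 deletion (-0.16), Nanog -37.5 kb at 1 h (-0.056) and Nanog -4.3 kb at 24 h (-0.15). With merging they were Pou5f1 -2.0 kb at 24 h (-0.15) and after Baf53a deletion (-0.24), Pou5f1 +10.9 kb at 1 h (-0.087) and after Brg1 deletion (-0.080) and Nanog +8.9 kb after Baf53a deletion (-0.12). With quantile normalization it was Nanog -4.3 kb at 24 h (-0.058). With single libraries left out, some small values changed sign too. Pou5f1 -2.0 kb had a range of -0.085 to 0.91 after Brg1 deletion and of -0.34 to 0.52 after Baf53a deletion, and Pou5f1 +10.9 kb of -0.12 to 0.24 at 24 h and of -0.20 to 0.24 at 1 h. Nanog -37.5 kb had a range of -0.24 to 0.31 at 1 h and of -0.10 to 0.51 after Baf53a deletion. Nanog -4.3 kb had one of -0.076 to 0.091 at 24 h, of -0.22 to 0.14 at 1 h and of -0.16 to 0.014 after Baf53a deletion, and Nanog +8.9 kb one of -0.57 to 0.78 after Baf53a deletion. The cause of these changes was not tested.

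Correlations between same-numbered libraries were weak, and whether replicate numbers pair the samples is not settled. With 2 libraries per group the check comes down to 1 value per contrast, so it cannot exclude pairing. The correlation of the deviations of same-numbered libraries was -0.00661 at 24 h, 0.142, 0.209 and 0.0495 at 1 h, 0.0426 in the Brg1 line and 0.0772 in the Baf53a line. At 1 h not every library correlated best with its own number. With a replicate block, width calls numbered 0 after Brg1 deletion and 0 at 24 h. The block changed no call among the library tests, with adjusted exact permutation p of 0.484 for Nanog regions and the Pou5f1 share, 0.792 for Pou5f1 regions and 0.934 for the Nanog share. Unknown read depth limits what the absence of a peak can show.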
